A study of Mus musculus with 10 samples.

Results

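The CCR4-NOT complex is the main machine that shortens the poly(A) tails of mRNAs in the cytoplasm. The mRNAs of its 10 core subunits, Cnot1, Cnot2, Cnot3, Cnot6, Cnot6l, Cnot7, Cnot8, Cnot9, Cnot10 and Cnot11, were followed in mouse embryonic stem cells (ESCs) that lack miRNAs or the helicase DDX6. The members were taken by gene symbol from the count table, in which all 10 were found among 51467 genes, and all 10 passed the filter on low counts that left 11683 genes for testing. Wild-type (WT) cells of the V6.5 line gave 3 libraries. DGCR8 KO cells, which lack the partner of Drosha needed to cut most miRNA hairpins from their primary transcripts, gave 3 libraries from a line made in earlier work, and whether that line came from V6.5 cells is not given in the sources used here. DDX6 KO cells gave 4 libraries, 2 from each of 2 clones that were made by CRISPR from V6.5 cells and carry an insertion or a deletion leading to an early stop. All cells grew with serum, LIF and the inhibitors PD0325901 and CHIR99021 (2i), so any effect of this medium is shared by all groups. Because the DGCR8 KO group is 1 line and the DDX6 KO group 2 clones, an effect of the deletion cannot be told apart from another property of a line.

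In the complex, CNOT1 is the scaffold on which the other subunits sit. Tails are removed by a pair of nucleases, one of the CCR4 type (CNOT6 or its paralog CNOT6L) and one of the CAF1 type (CNOT7 or its paralog CNOT8), and the paralogs of a type take the same place in turn. CNOT2 and CNOT3 form the NOT module, CNOT9 binds tryptophans of the miRNA effector protein TNRC6, and CNOT10 and CNOT11 form a module at the N-terminal end of CNOT1. When miRNAs silence an mRNA, Argonaute and TNRC6 bring this complex to it, and the middle part of CNOT1 in turn binds DDX6.

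The comparison of knockouts with WT asks what happens to the mRNAs of the complex when the miRNAs that recruit it, or the helicase that binds it, are missing. Both CCR4-type nucleases rose without DGCR8, Cnot6 2.81-fold and Cnot6l 2.60-fold, and both rose less without DDX6, 1.27-fold and 1.73-fold. The scaffold Cnot1 and Cnot9 fell in both knockouts, and Cnot1 in DGCR8 KO no longer passed once the lower median of its chromosome was removed. Neither CAF1-type nuclease passed the test without DGCR8, whereas Cnot7 rose 1.30-fold without DDX6. Cnot2 and Cnot8 passed in no comparison.

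In ESCs the most abundant miRNAs belong to the ESCC group, so called for the ESC cell cycle, made from the miR-290 and miR-302 clusters. In the reporter line of the paper, naive ESCs had the miR-290 reporter on and the miR-302 reporter off. The sequences of members of that group, and of 2 miRNAs of the related miR-17 family, are shown because their seeds, which direct target choice, can be read against the 3′ UTRs of the nucleases that rose most. Sequences are from RefSeq (GRCm38.p6), written 5′ to 3′, and capitals mark the seed at bases 2 to 8.
miR-291a-3p: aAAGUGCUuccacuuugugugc
miR-294-3p: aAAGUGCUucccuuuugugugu
miR-295-3p: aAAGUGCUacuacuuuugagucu
miR-302b-3p: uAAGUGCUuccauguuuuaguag
miR-17-5p: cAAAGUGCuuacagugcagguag
miR-20a-5p: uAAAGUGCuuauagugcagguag
The first 4 share the seed AAGUGCU. The last 2 share AAAGUGC, which holds the same bases shifted by 1.

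The 3′ UTR of each member was searched on its own strand for 7-base matches to these seeds, AGCACTT and GCACTTA for the ESCC miRNAs and GCACTTT and CACTTTA for the miR-17 family, which overlap each other in part. Of the 10 members, 2 held an ESCC match, and they were Cnot6 and Cnot6l. Among 10962 tested genes with an annotated 3′ UTR, 19.4% held one. The chance of holding a match grows with length, and 44.6% of the tested genes with a 3′ UTR within 20% of that of Cnot6 (3690 bases) and 21.1% of those near that of Cnot6l (1443 bases) held one. Cnot6l also has an annotated transcript with a 3′ UTR of 6847 bases, and among tested genes with a longest 3′ UTR near that length 67.1% held an ESCC match, while the members that held one were again Cnot6 and Cnot6l. Windows of 30 bases around the matches are given next in the direction of the mRNA, with the match in capitals. All lie on the minus strand in annotated 3′ UTRs of GENCODE M21 transcripts, with coordinates on mm10 (GRCm38), as for all positions given.
Cnot6, chr11:49673033-49673062: gagaggggaggAGCACTTActcatctctgc
Cnot6, chr11:49672182-49672211: tatttcatattAGCACTTTgaaacctaaag
Cnot6l, chr5:96076647-96076676: cacattatcaaAGCACTTAaatttgcttga
Cnot7, chr8:40493578-40493607: ccatcaagtttGCACTTTAgagagtgattt
The first Cnot6 window and the Cnot6l window hold both ESCC matches in 1 run of 8 bases, and the second Cnot6 window holds AGCACTT overlapping the miR-17 match GCACTTT. Cnot7 held both miR-17 matches, overlapping, and no ESCC match, and its window is shown because it is the CAF1-type gene with a match. Cnot1 held a single CACTTTA, as did Cnot6l beside its ESCC matches. The Cnot6l 3′ UTR of 6847 bases holds a further GCACTTTA, in which both miR-17 matches overlap. In all, 4 of 10 members had a match to either family, beside 30.2% of the tested genes. The other 6 members held none of these letters in the transcript searched. A match is a stretch of letters only, and binding was not measured.

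Each library held 2131156 to 4745083 counts over genes, and a member had 118 to 2340 counts in a library, so that no value of a member is near the floor of 3 counts (0.669 to 1.44 CPM, the usual scale of counts relative to the library total, with totals adjusted between libraries by the TMM method). Floors and binomial intervals cover counting error only. The labels do not say whether libraries of a group came from separate cultures, so p-values measure the spread between these libraries. Dgcr8 was at 50.4, 52.1 and 65.8 CPM in WT and at 10.1, 9.16 and 15.5 CPM in DGCR8 KO. Ddx6 was at 505, 525 and 586 CPM in WT, at 149 and 135 CPM in clone 1 and at 39.0 and 25.7 CPM in clone 2, so that the clones differed (log2 difference of clone 2 from clone 1 -2.18, limma adjusted p = 3.10e-05). The reads lie at transcript ends and show these levels, not the edits. The 7 naive pluripotency markers were all tested and summed to 3138 to 3985 CPM in every library, whereas the 4 primitive endoderm markers summed to 4.76 CPM or less. Of the naive markers, Sox2 rose and Tfcp2l1, Klf4, Nanog and Zfp42 fell in DGCR8 KO. In DDX6 KO Nanog rose and Tfcp2l1 fell. Nanog lies on chromosome 6, whose median log2 level minus the WT mean was 0.53 to 0.68 in the DDX6 KO libraries. Zfp42 lies on chromosome 8, where that median was -0.52 to -0.40 in the DGCR8 KO libraries. The part of the chromosomes in these marker changes was not tested. The 6 fibroblast markers summed to 4.01 to 4.80 CPM in WT, 3.26 to 5.82 CPM in DGCR8 KO and 11.6 to 17.9 CPM in DDX6 KO, with Postn at 0 in WT and DDX6 KO, and their part in the results was not tested. The 4 neural markers summed to 109 to 136 CPM in WT and 48.2 to 72.9 CPM in DGCR8 KO. In DDX6 KO they summed to 127 to 183 CPM. Single genes went both ways: Pax6 rose and Nes, Sox1 and Tubb3 fell in DGCR8 KO, and Sox1 rose and Nes fell in DDX6 KO. Sox1 and Tubb3 also lie on chromosome 8, with its lower median in DGCR8 KO. The 4 primed or formative markers summed to 194 to 285, 147 to 178 and 81.4 to 107 CPM in WT, DGCR8 KO and DDX6 KO. Fgf5 was at 0 throughout. The part of these lists in the results was not tested either.

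In WT cells Cnot1 was the most abundant of the subunit mRNAs, with 517 ± 19 CPM (SD, n = 3), above 97.1% of the tested genes. QuantSeq takes reads from the 3′ end of each mRNA, so that CPM does not scale with transcript length. Only unique alignments were counted, so reads that fit more than 1 place are lost and levels of different genes compare only roughly. Of the members, Cnot3 shares end sequence with another gene, so its place in this order is less certain. Next came Cnot3 (129 ± 15), Cnot2 (129 ± 4.8) and Cnot6 (127 ± 3.8), whose libraries overlapped from one to the next. Cnot7 (95.3 ± 10), Cnot11 (81.4 ± 5.9), Cnot10 (79.2 ± 17) and Cnot9 (74.0 ± 2.9) also overlapped their neighbours in that order. Cnot8 (56.5 ± 8.8) and Cnot6l (50.4 ± 8.1) were lowest and overlapped each other. In each paralog pair of nucleases, Cnot6 was therefore above Cnot6l and Cnot7 above Cnot8 in every WT library. In DGCR8 KO the first place changed: Cnot6 (357 ± 12) and Cnot1 (343 ± 55) overlapped at the top, and Cnot9 (56.1 ± 0.27) was last.

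**Figure D1:**
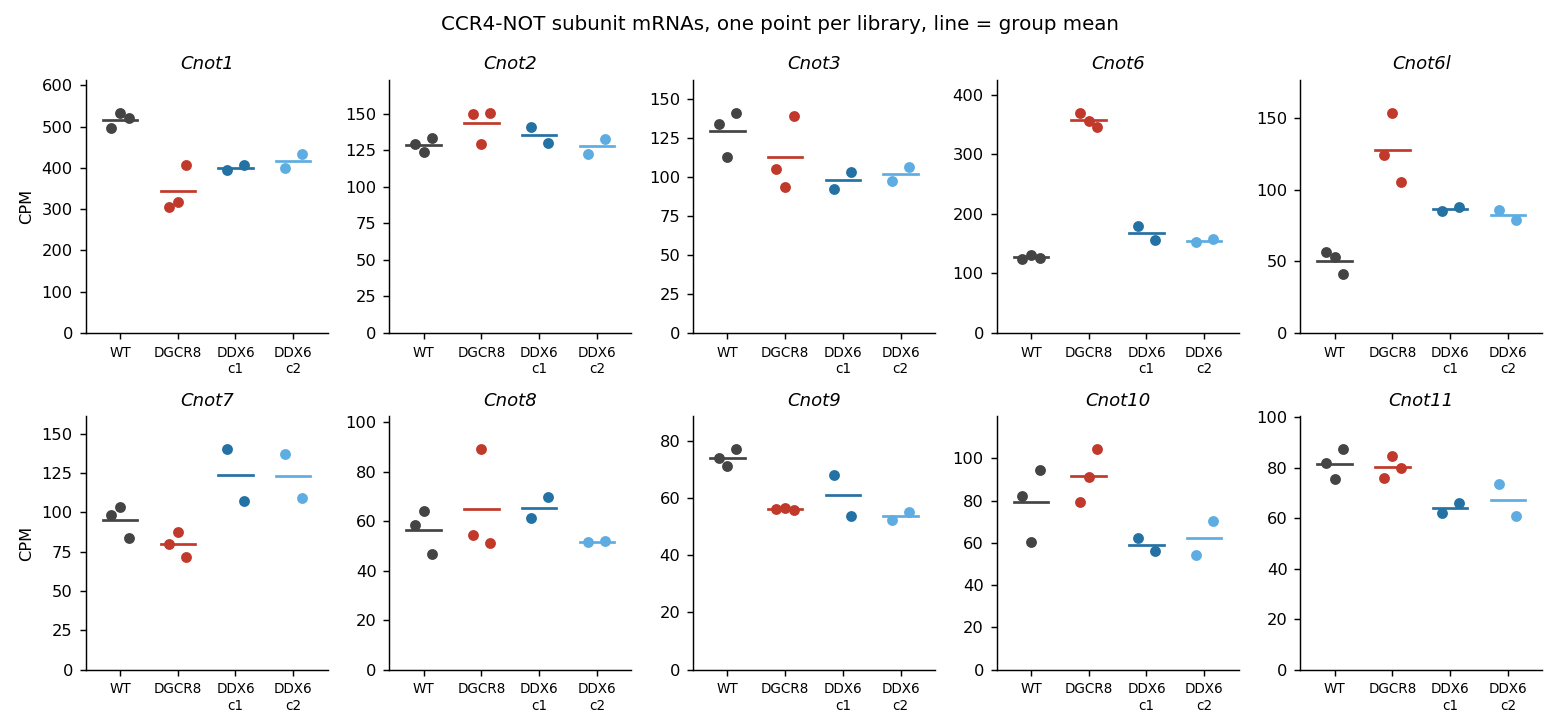
Level of each subunit mRNA in CPM (vertical axes start at 0 and differ between panels) in WT, DGCR8 KO and clones 1 and 2 (c1, c2) of DDX6 KO, with 1 point per library and a line at the group mean. Cnot6 and Cnot6l are highest in the 3 DGCR8 KO libraries and between these and WT in the 4 DDX6 KO libraries, whereas Cnot1 is highest in WT.

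Among the catalytic subunits, the CCR4-type genes had the largest log2 fold changes of the members in DGCR8 KO. Cnot6 (ENSMUSG00000020362, chr11:49671503-49712723, minus strand) encodes a CCR4-type nuclease that prefers tails covered by poly(A)-binding protein. It stood at 124, 131 and 125 CPM in WT, at 370, 355 and 346 CPM in DGCR8 KO, at 180 and 157 CPM in clone 1 and at 153 and 157 CPM in clone 2. All DGCR8 KO libraries lay above all others, and all DDX6 KO libraries lay above all WT libraries. The log2 fold change against WT was 1.49 ± 0.10 (SE) in DGCR8 KO (higher in 3 of 3 libraries, limma adjusted p = 5.05e-09) and 0.35 ± 0.10 in DDX6 KO (limma adjusted p = 0.0127, higher in 4 of 4). The DDX6 KO call was lost without WT replicate 3 (log2 fold change 0.33, adjusted p = 0.0575) and with clone 2 as the only DDX6 KO clone (0.30, adjusted p = 0.0862), and over 21 alternatives the adjusted p ran from 0.00172 to 0.0862.

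Cnot6l (ENSMUSG00000034724, chr5:96070333-96161990, minus strand) encodes the paralog that can take the place of CNOT6. Its level was 56.7, 53.2 and 41.2 CPM in WT, 124, 154 and 105 CPM in DGCR8 KO, 85.0 and 88.0 CPM in clone 1 and 86.2 and 78.9 CPM in clone 2. The 3 genotypes did not overlap, with WT lowest and DGCR8 KO highest. The log2 fold change was 1.38 ± 0.16 in DGCR8 KO (limma adjusted p = 2.04e-06) and 0.79 ± 0.15 in DDX6 KO (limma adjusted p = 0.000608). Of the members that passed the test in DDX6 KO, Cnot6l was the one that did so under each of 21 alternatives (log2 0.62 to 0.92), and it also passed in each clone taken alone.

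Cnot7 (ENSMUSG00000031601, chr8:40492540-40515847, minus strand) encodes a CAF1-type nuclease, the type that trims tail stretches free of poly(A)-binding protein. It was at 98.4, 104 and 83.8 CPM in WT, 79.6, 87.5 and 71.7 CPM in DGCR8 KO, 140 and 107 CPM in clone 1 and 137 and 109 CPM in clone 2. WT and DGCR8 KO overlapped, whereas the DDX6 KO libraries lay above all others, and within each clone the library numbered 1 was the higher. Cnot7 rose in DDX6 KO (log2 fold change 0.37 ± 0.13, limma adjusted p = 0.0312, higher in 4 of 4 libraries). In DGCR8 KO it differed from WT by -0.24 on the log2 scale (95% interval -0.54 to 0.06, limma adjusted p = 0.209). The rise in DDX6 KO was lost in 8 of 21 alternatives, among them leaving out WT replicate 3 (0.27, adjusted p = 0.204), WT replicate 1 (adjusted p = 0.0504) or the first library of clone 1 (adjusted p = 0.0900) or clone 2 (adjusted p = 0.0884). The adjusted p ran from 0.00721 to 0.204.

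Cnot8 (ENSMUSG00000020515, chr11:58104229-58118594, plus strand), the CAF1-type paralog, was at 58.6, 64.1 and 46.8 CPM in WT, 54.5, 88.9 and 51.3 CPM in DGCR8 KO, and between 51.7 and 69.6 CPM in DDX6 KO. The second DGCR8 KO library stood above the rest, and the groups overlapped. The log2 difference from WT was 0.20 (95% interval -0.21 to 0.60) in DGCR8 KO and 0.07 (95% interval -0.31 to 0.45) in DDX6 KO, so that a change of about 1.5-fold in DGCR8 KO was within the interval.

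**Figure D2:**
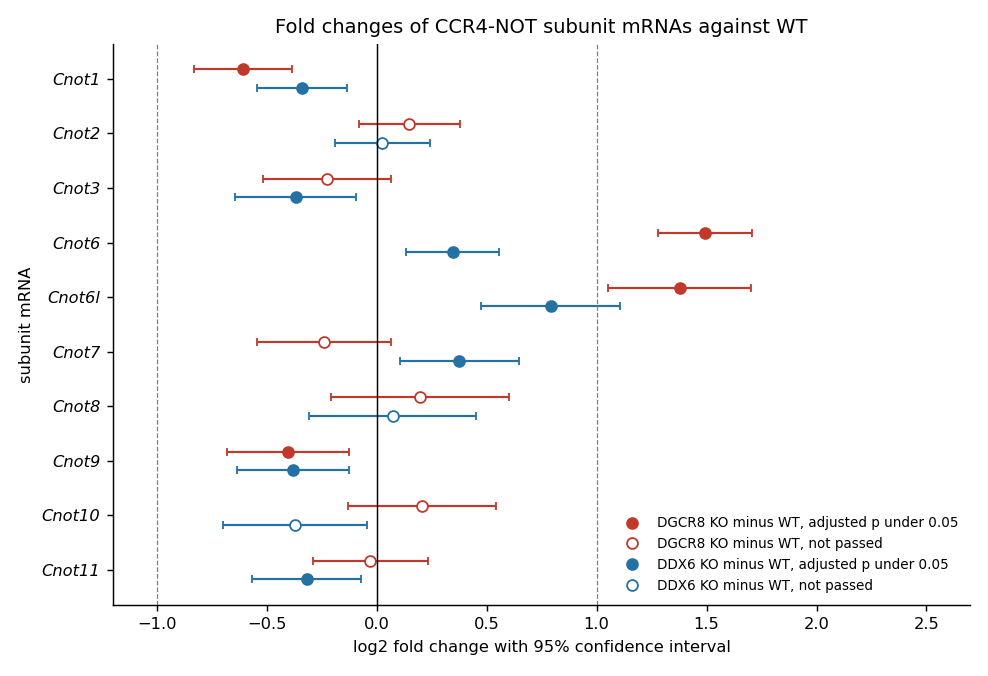
Log2 fold change of each subunit mRNA against WT in DGCR8 KO (red) and DDX6 KO (blue) with 95% confidence intervals from limma; filled points have an adjusted p under 0.05 and dashed lines mark log2 of -1 and 1. Cnot6 (1.49) and Cnot6l (1.38) in DGCR8 KO lie past the upper dashed line, and no member in DDX6 KO does. Both knockouts are compared with the same WT libraries.

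The scaffold Cnot1 (ENSMUSG00000036550, chr8:95719451-95807464, minus strand) stood at 496, 534 and 522 CPM in WT, at 306, 317 and 406 CPM in DGCR8 KO, at 394 and 406 CPM in clone 1 and at 399 and 435 CPM in clone 2. Both knockouts lay below WT in every library, and the third DGCR8 KO library lay among the DDX6 KO libraries. Cnot1 fell by 0.61 ± 0.11 on the log2 scale in DGCR8 KO (limma adjusted p = 0.000205, lower in 3 of 3 libraries) and by 0.34 ± 0.10 in DDX6 KO (limma adjusted p = 0.0115, lower in 4 of 4). The DDX6 KO call was lost when libraries were scaled by total counts (-0.22, adjusted p = 0.0737) and with clone 2 alone (-0.30, adjusted p = 0.0953), within a range of adjusted p over 21 alternatives from 0.00390 to 0.0953.

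Cnot1 and Cnot7 share chromosome 8, and the median level of that chromosome was lower in DGCR8 KO. The median over its 644 tested genes, as log2 level minus the WT mean, was -0.40, -0.52 and -0.42 in the 3 DGCR8 KO libraries, whereas it lay between -0.05 and 0.01 in the WT and DDX6 KO libraries. On the 6 other chromosomes that hold members the medians of the knockout libraries lay between -0.05 and 0.10. With each chromosome's median set to 0 in each library, Cnot1 in DGCR8 KO was at -0.15 on the log2 scale and no longer passed (limma adjusted p = 0.274, the highest of 19 alternatives, which began at 2.52e-06), while its fall in DDX6 KO was -0.32 (limma adjusted p = 0.0156). Cnot7 in DGCR8 KO turned from -0.24 to 0.22 (limma adjusted p = 0.281). Of the 644 chromosome 8 genes, 37.7% had a lower log2 fold change in DGCR8 KO than Cnot1 and 66.9% a lower one than Cnot7. The chromosome and the deletion cannot be told apart in this line.

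**Figure D3:**
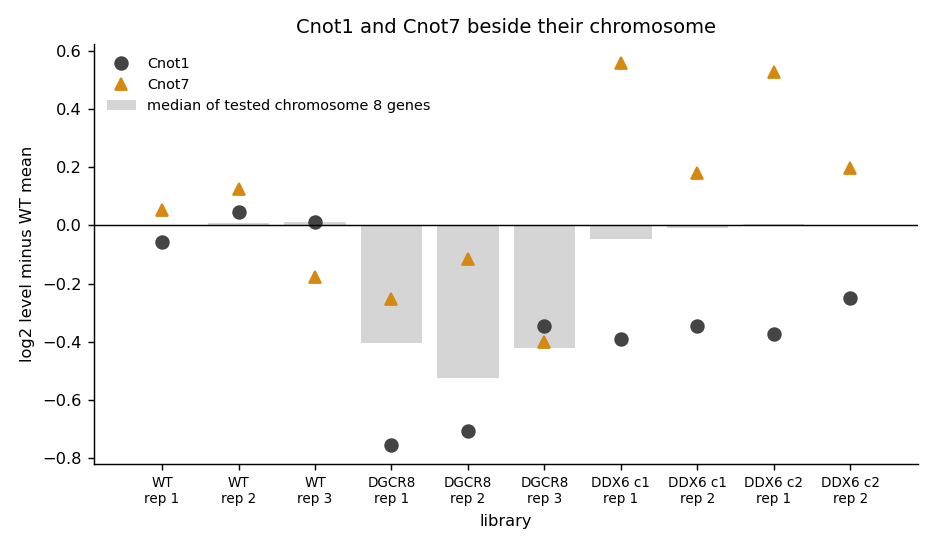
Log2 level minus the WT mean of Cnot1 (circles) and Cnot7 (triangles) in each library, beside the median of the 644 tested chromosome 8 genes (grey bars from 0). The bars are at -0.40 to -0.52 in the DGCR8 KO libraries and near 0 elsewhere; in DDX6 KO, Cnot1 lies below and Cnot7 above a bar near 0 (c1 and c2 are the clones).

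Cnot9 (ENSMUSG00000026174, chr1:74506058-74530842, plus strand), the subunit that docks TNRC6, was at 73.9, 71.2 and 76.9 CPM in WT, 56.0, 56.3 and 55.8 CPM in DGCR8 KO, 68.1 and 53.6 CPM in clone 1 and 52.4 and 55.1 CPM in clone 2. The knockout libraries lay below WT throughout, and the first clone 1 library came closest to it. Cnot9 fell by 0.40 ± 0.13 on the log2 scale in DGCR8 KO (limma adjusted p = 0.0224) and by 0.38 ± 0.12 in DDX6 KO (limma adjusted p = 0.0207). The DGCR8 KO call was lost without WT replicate 3 (adjusted p = 0.0777) and without DGCR8 KO replicate 1 (adjusted p = 0.0600), within a range over 19 alternatives of 0.0105 to 0.0777, and the DDX6 KO call was lost in 6 of 21, among them without WT replicate 3 (adjusted p = 0.0897), the second clone 1 library (0.0547) or the first clone 2 library (0.0657), within a range of 0.00997 to 0.193.

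In the NOT module, which contacts mRNA-bound partners, Cnot2 (ENSMUSG00000020166, chr10:116485161-116581511, minus strand) ranged from 124 to 134 CPM in WT, 130 to 151 CPM in DGCR8 KO and 123 to 141 CPM in DDX6 KO. The groups overlapped, with log2 differences from WT of 0.15 (95% interval -0.08 to 0.38) and 0.03 (-0.19 to 0.24), intervals that leave out a 1.5-fold change in either knockout. Cnot3 (ENSMUSG00000035632, chr7:3645352-3661109, plus strand) was at 133, 113 and 141 CPM in WT, 105, 93.7 and 139 CPM in DGCR8 KO, 92.3 and 103 CPM in clone 1 and 97.1 and 106 CPM in clone 2. The DDX6 KO libraries lay below WT and the DGCR8 KO libraries spread over both. Cnot3 fell by 0.37 ± 0.13 on the log2 scale in DDX6 KO (limma adjusted p = 0.0354), and differed by -0.23 (95% interval -0.52 to 0.07) in DGCR8 KO. The call in DDX6 KO was lost in 10 of 21 alternatives, with adjusted p from 0.0159 to 0.174, among them without WT replicate 1 (0.0853), WT replicate 3 (0.174), either clone 1 library (0.0895 and 0.0543) or the first clone 2 library (0.0778). Its counts are less certain than those of the others, since 123 of the 548 runs of 50 bases in the ends of its transcripts also occur in Gm9207 and the short gene Mir3572 overlaps its exons.

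The N-terminal module holds Cnot10 and Cnot11, and of these Cnot10 differed between the knockouts. Cnot10 (ENSMUSG00000056167, chr9:114585878-114640184, minus strand) was at 82.1, 60.7 and 94.7 CPM in WT, 79.6, 91.3 and 104 CPM in DGCR8 KO, 62.3 and 56.0 CPM in clone 1 and 54.5 and 70.5 CPM in clone 2. WT spread over both knockouts, whereas the knockouts did not overlap each other. Against WT the log2 difference was 0.20 (95% interval -0.13 to 0.54) in DGCR8 KO and -0.37 (95% interval -0.70 to -0.04, limma adjusted p = 0.0744) in DDX6 KO. Without WT replicate 2, the WT library lowest for Cnot10, the DDX6 KO difference passed at -0.56 (limma adjusted p = 0.0106), the one of 21 alternatives in which it did, with adjusted p up to 0.434. Cnot11 (ENSMUSG00000003135, chr1:39534992-39546889, plus strand) was at 81.6, 75.3 and 87.2 CPM in WT, 75.9, 84.5 and 79.8 CPM in DGCR8 KO, 61.9 and 66.1 CPM in clone 1 and 73.5 and 61.0 CPM in clone 2. WT and DGCR8 KO overlapped and DDX6 KO lay below both. Cnot11 fell by 0.32 ± 0.12 on the log2 scale in DDX6 KO (limma adjusted p = 0.0425), and was at -0.03 (95% interval -0.29 to 0.23) in DGCR8 KO. The call in DDX6 KO was lost in 14 of 21 alternatives, with adjusted p from 0.0194 to 0.197, among them without WT replicate 1 (0.0791), WT replicate 3 (0.188), DGCR8 KO replicate 1 (0.0513), either clone 1 library (0.10 and 0.0712) or the second clone 2 library (0.105).

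Counted together, 2 of 10 members rose and 2 fell in DGCR8 KO at a limma adjusted p under 0.05, beside 19.9% and 16.5% of the 11683 tested genes that rose and fell. The 2 that rose also passed a 2-fold change, as did 8.93% of the tested genes in that direction, and the same 4 members were those whose libraries did not overlap WT (23.7% of tested genes higher, 21.1% lower). In DDX6 KO 3 members rose and 4 fell, beside 17.9% and 16.6% of the tested genes, and none passed a 2-fold change, beside 7.55% higher and 3.66% lower over all. Those 7 were also the members without overlap with WT (20.5% of tested genes higher, 19.4% lower). The count of 7 rested on single libraries. It was 2 without WT replicate 3, which is the deepest library, and 4 without WT replicate 1, either clone 1 library or the first clone 2 library. The median log2 fold change over the members was 0.06 in DGCR8 KO and -0.15 in DDX6 KO, beside 0.00 and 0.02 over the tested genes. Scaling by total counts moved the median of all tested genes in DDX6 KO to 0.15, where 2822 genes rose and 1356 fell in place of 2088 and 1944. In the direct comparison of the knockouts that scaling moved the median from 0.00 to -0.13 and gave 2037 higher and 3210 lower in place of 2688 and 2456.

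The clones of DDX6 KO were compared with each other because the knockout rests on them. No member differed between clone 2 and clone 1 by limma, at an adjusted p under 0.05 or at an unadjusted p under 0.05 (2.43% of the tested genes), and edgeR and DESeq2 also called none, beside 0.0428% of the tested genes called in limma. Cnot8 was the one member whose clone libraries did not overlap, lower in clone 2 (31.8% of the tested genes did not overlap in either direction). Its log2 difference was -0.33 (95% interval -0.83 to 0.16), and those of the other members lay between -0.16 and 0.08, with intervals that reach at most 0.55 in size. Each clone against WT gave the same direction as the pooled value for the 7 members that passed. In clone 1, 3 members passed (Cnot6, Cnot6l and Cnot1, beside 13.1% of the tested genes higher and 10.7% lower), and in clone 2 Cnot6l and Cnot9 (13% and 11.6%).

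Set directly against DDX6 KO, DGCR8 KO had 3 members higher and 2 lower at an adjusted p under 0.05, beside 23% and 21% of the tested genes. Cnot6 passed a 2-fold difference, with 2.21-fold more mRNA in DGCR8 KO (limma adjusted p = 3.12e-08), beside 7.77% of tested genes in that direction. Cnot6l was higher by 0.59 ± 0.13 on the log2 scale (limma adjusted p = 0.00163) and, like Cnot6, passed under all 21 alternatives. Cnot10 was 1.49-fold higher in DGCR8 KO (log2 0.57 ± 0.15, limma adjusted p = 0.00563), and lost its call with clone 2 alone (adjusted p = 0.0600; 0.00231 to 0.0600 over 21 alternatives). Cnot7 was lower by 0.61 ± 0.13 on the log2 scale (limma adjusted p = 0.00110) and Cnot1 lower by 0.27 ± 0.10 (limma adjusted p = 0.0381). The Cnot1 difference kept its direction and lost its call in 7 of 21 alternatives, among them without DGCR8 KO replicate 1 (adjusted p = 0.179), DGCR8 KO replicate 2 (0.119) or the second library of clone 1 (0.0579) or clone 2 (0.0854), within a range of 0.00284 to 0.185. Both are chromosome 8 members. With chromosome medians set to 0, Cnot7 was at -0.18 (limma adjusted p = 0.322, from 7.85e-05 over 21 alternatives) and Cnot1 turned to 0.17 (limma adjusted p = 0.185). The libraries of 4 members lay higher without overlap (23.8% of tested genes) and those of 1 lower (22%), the additional one being Cnot11, at a log2 difference of 0.29 (limma adjusted p = 0.0545).

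Within the summed counts of the 10 members, the CCR4-type nucleases made up 12.3% to 13.9% in WT, 29.9% to 35.3% in DGCR8 KO and 18.8% to 20.6% in DDX6 KO. These ranges did not overlap. The share of Cnot1 went the other way, with 37.2% to 40.1% in WT, 21.7% to 26.9% in DGCR8 KO and 30.7% to 34.6% in DDX6 KO. The CAF1-type nucleases made up 9.66% to 12.6%, 8.14% to 12.1% and 12.8% to 15.6%, so that DDX6 KO lay above the other 2 groups, which overlapped. All members summed to 1339 ± 12 CPM in WT, 1456 ± 55 CPM in DGCR8 KO and 1252 ± 26 CPM in DDX6 KO. Shares are bound to each other, since a rise of Cnot6 alone lowers the share of Cnot1.

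**Figure D4:**
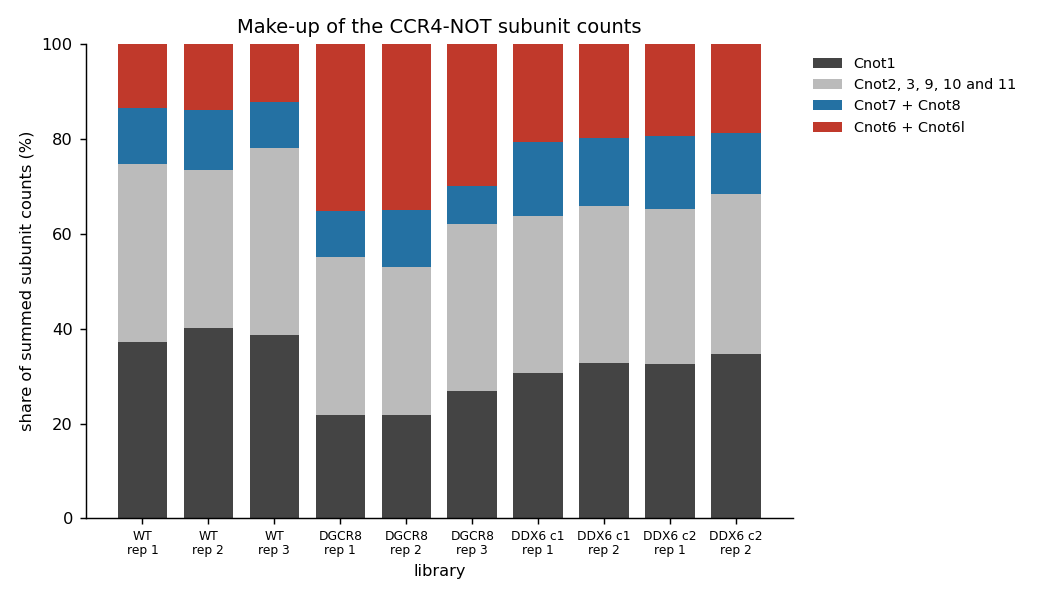
Share of the summed counts of the 10 subunit mRNAs (percent, stacked to 100) taken by Cnot1, by Cnot2, Cnot3, Cnot9, Cnot10 and Cnot11 together, by the CAF1-type pair Cnot7 and Cnot8 and by the CCR4-type pair Cnot6 and Cnot6l, in each library (c1 and c2 are the DDX6 KO clones). The CCR4-type pair takes 12.3% to 13.9% in WT and 29.9% to 35.3% in DGCR8 KO.

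The balance between paralogs was described apart from their sum. Cnot6l made up 31.3%, 28.8% and 24.8% of the Cnot6 plus Cnot6l counts in WT and 25.2%, 30.2% and 23.4% in DGCR8 KO. It made up 32.1% and 35.9% in clone 1 and 36.1% and 33.4% in clone 2. WT and DGCR8 KO overlapped, and DDX6 KO lay above both, although exact binomial 95% intervals of single libraries reach across (26.6% to 36.2% for the first WT library, 28.7% to 35.6% for the first clone 1 library). Cnot8 made up 35.8% to 38.2% of the Cnot7 plus Cnot8 counts in WT, 40.6% to 50.4% in DGCR8 KO and 27.4% to 39.3% in DDX6 KO. The DGCR8 KO libraries lay above the others. Cnot7 lies on chromosome 8, with its lower median in DGCR8 KO, and Cnot8 on chromosome 11, and the part of the chromosome in this share was not tested.

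For the 2 members past a 2-fold change, the genes with the most similar pattern were sought by Pearson's r of log2 CPM over the 10 libraries. The search covered 8342 tested genes that averaged 10 CPM or more, with predicted genes left out. For Cnot6 they were Eya3 (r = 0.995), Hp1bp3 (0.993) and Lamp2 (0.991). For Cnot6l they were Tmx4 (0.985), Trim12c (0.980) and Med1 (0.979). Lamp2, a lysosomal membrane protein gene, averaged 122 CPM in WT, 568 CPM in DGCR8 KO and 189 CPM in DDX6 KO. Med1, a Mediator subunit gene, averaged 116, 189 and 159 CPM. The r between Cnot6 and Cnot6l themselves was 0.873. All of these share the 10 libraries and mostly follow the 3 genotype means.

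Other genes of tail removal and decay give the setting. CCR4-NOT also carries Cnot4, a ubiquitin ligase gene, and Tnks1bp1. Tnks1bp1 rose in DGCR8 KO (log2 0.71, limma adjusted p = 0.0439) and Cnot4 rose in DDX6 KO (log2 0.68, limma adjusted p = 0.000771). Cnot4 lies on chromosome 6, whose median was 0.53 to 0.68 higher in the DDX6 KO libraries. A further list held genes outside the complex named as deadenylases or as their partners or relatives, whose activity was not measured. Of 8 tested, 1 rose and 1 fell in DGCR8 KO, Parn (log2 0.61) and Noct (log2 -1.17). Of all tested genes, 19.9% and 16.5% rose and fell there. In DDX6 KO 1 fell, Pan3 (log2 -0.60), which encodes the partner of the PAN2 nuclease, where 17.9% and 16.6% of all tested genes rose and fell. The list medians were 0.11 and 0.04, beside 0.00 and 0.02 over all tested genes.

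Poly(A)-binding proteins coat the tails that the complex shortens. Of 6 tested genes for them and their partners, 1 rose and 2 fell in DGCR8 KO, beside 19.9% and 16.5% of all tested genes. In DDX6 KO 1 fell, where 17.9% and 16.6% of all tested genes rose and fell. Pabpc1, the most abundant, averaged 5000 CPM in WT, 3226 CPM in DGCR8 KO and 2727 CPM in DDX6 KO, a fall of 0.63 and of 0.88 on the log2 scale. Pabpc4 fell by 1.09 and Paip1 rose by 0.68 in DGCR8 KO. The list medians were -0.34 and -0.25, beside 0.00 and 0.02 over all tested genes.

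Adaptors bring the complex to chosen mRNAs. Of 18 tested, 9 rose and 1 fell in DGCR8 KO (median log2 0.58), where 19.9% and 16.5% of all tested genes did so. In DDX6 KO 5 rose and 1 fell (median 0.26), beside 17.9% and 16.6%. Tnrc6a, which links Argonaute to CNOT1 and CNOT9, rose by 1.72 and 1.25 and Tnrc6b by 1.37 and 1.16 on the log2 scale. Tnrc6c, named as a paralog of both, averaged 64.3 CPM in WT and rose to 112 CPM in DGCR8 KO. In DDX6 KO it averaged 52.2 CPM and did not pass. Nanos3 in DGCR8 KO (log2 1.68) averaged 4.63 CPM against 1.43 CPM in WT, close to the floor, and Nanos1 fell by 1.59 in DDX6 KO.

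Decapping and 5′ decay follow tail removal. Of 16 tested genes, 1 rose and 7 fell in DGCR8 KO (median log2 -0.19), beside 19.9% and 16.5% of all tested genes. In DDX6 KO 1 rose and 5 fell (median -0.12), beside 17.9% and 16.6%. Lsm6 (log2 -1.16), Lsm5 (-1.03) and Lsm4 (-1.03) fell most in DGCR8 KO. Lsm6 and Lsm4 lie on chromosome 8, as do 2 more genes of the list, Lsm1 (log2 -0.79, limma adjusted p = 0.00356) and Edc4 (log2 -0.29, limma adjusted p = 0.0887), which were named for their place. In DDX6 KO, Lsm5 rose (log2 0.57), which lies on chromosome 6, and Lsm2 (-0.49) and Lsm4 (-0.43) fell. The lists were described by counts, medians and single genes, and no list was tested as a whole, since they were chosen with results of these data known.

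**Figure D5:**
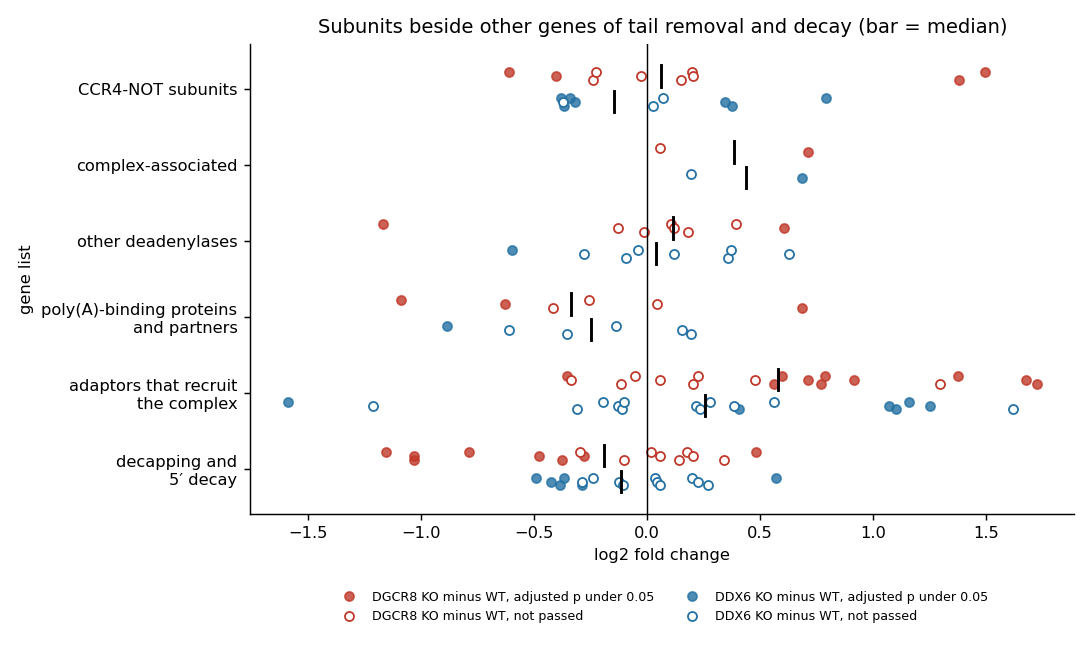
Log2 fold change against WT of the tested genes of each list in DGCR8 KO (red) and DDX6 KO (blue), with 1 point per gene, filled where the adjusted p was under 0.05, and a black bar at the list median. Among the subunits, Cnot6 and Cnot6l in DGCR8 KO stand apart at 1.49 and 1.38, while the median bars of the subunits are at 0.06 and -0.15 and those of the adaptors at 0.58 and 0.26.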

How the data were processed

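QuantSeq 3′ FWD libraries were made from 10 RNA samples of mouse ESCs (3 WT, 3 DGCR8 KO, 4 DDX6 KO). The deposited values are whole-number counts per gene: per the submitters' processing notes and the file header, the authors trimmed reads with cutadapt 1.14, aligned them to mm10 with STAR 2.5.3a, kept unique alignments and counted sense-strand reads with featureCounts 1.5.3. No step with molecular identifiers is stated. 92 spike-in rows were set apart, and 51274 of 51467 gene IDs were paired with symbols through the GENCODE M21 annotation of the same build.

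Here counts were scaled by TMM (edgeR 4.0.16), the filter kept a gene that reached 3 CPM in 3 or more libraries, and limma 3.58.1 with voom weights (R 4.3.3) was fitted to all 10 libraries by genotype, with a second fit by clone. P-values are two-sided and Benjamini-Hochberg adjusted over the 11683 tested genes. A change was an adjusted p under 0.05, and a 2-fold change also required a log2 fold change beyond 1. The study used limma and did not state its weights. The alternatives were DESeq2 1.42.0 size factors, total counts, the edgeR quasi-likelihood and DESeq2 tests, limma-trend, 2 other filters, a replicate block, leaving out each library, each clone alone, and chromosome medians set to 0. The fit was also run on simulated counts in which 200 genes were changed 3-fold, up or down, in DGCR8 KO only. These counts held no smaller changes, no clones and no chromosome shift, so they do not bear on the changes in DDX6 KO.

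Libraries of 1 genotype differed by more than sampling noise (chi-square per degree of freedom at least 2.46). Deviations of libraries with the same number in the title correlated at 0.145 to 0.285 between WT and DGCR8 KO. Between WT and DDX6 KO they correlated at 0.0108 to 0.162, a range that overlaps the first. Between the DDX6 KO clones the value was 0.199. WT replicate 3 has no DDX6 KO library of its number. It correlated at 0.105 and 0.159 with the second clone libraries and at -0.105 and -0.159 with the first. With 2 libraries in a clone, their deviations mirror each other. Whether the numbers mark pairs was not tested. All 10 members were named with their values, and of the other lists up to 3 genes with the largest change among those that passed. Lsm1, Edc4, Tnrc6c and the marker genes were named besides. Members, lists and tests were chosen with earlier results of these data known. 3′ UTRs came from the coding transcript with the longest coding sequence.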

Additional observations from a re-analysis of the deposited data

Results flagged for a closer look

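Among the 4 DDX6 KO libraries, Cnot6 in the first clone 1 library (180 CPM) stood apart from the other 3 (153 to 157 CPM). The gap was 0.831 of the whole range, just above Dixon's 95% limit for 4 values. The 10 members and the 2 targeted genes were examined in this way in the DDX6 KO libraries, and chance flags about 1 in 20 such groups.

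Ddx6 mRNA itself differed between the DDX6 KO clones, with a log2 difference of clone 2 from clone 1 of -2.18 (limma adjusted p = 3.10e-05), which is the test of the difference itself. No member differed between the clones by the same test.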

How the results depend on the processing

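In DGCR8 KO against WT, 3 to 5 members passed under 19 alternatives (4 in the reported fit), and Cnot6 and Cnot6l passed under all 19. In DDX6 KO against WT, the count of 7 was 3 with total counts, 3 without a filter and 4 with a replicate block. The block used the number in the title, and the labels do not say what that number marks. The count was 3 with clone 1 alone and 2 with clone 2 alone, and ran from 2 to 8 when single libraries were left out. In DGCR8 KO against DDX6 KO, the count of 5 was 3 with chromosome medians set to 0 and 3 with clone 2 alone, and the difference of Cnot1 reversed to 0.17 under the former. The replicate block left 4 members passing in DGCR8 KO against WT and 5 in the direct comparison, and the calls it ended were those of Cnot3, Cnot7 and Cnot11 in DDX6 KO. The chromosome 8 median in DGCR8 KO was -0.36 in place of -0.45 without a filter. Of 328 pairs of a passing member and an alternative, 273 kept direction and call, 54 kept the direction only and 1 reversed. In 4 libraries against 3, changes of about 1.3-fold were near the limit of what passed: Cnot10 (log2 -0.37) missed and Cnot11 (-0.32) passed. Apart from the settings that remove the chromosome shift or samples by construction, the causes were not tested.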
